A study of Mus musculus with 6 samples.

Results

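Interferon-stimulated genes are the antiviral genes that cells switch on when interferon binds its receptor or when viral RNA is sensed. Here they were taken as a list of 39 mouse genes of the type I interferon response, and each gene was represented by the brightest probe set that carried its symbol alone, by mean scaled signal over all arrays. Of the 39 genes, 37 had such a probe set, out of 18193 genes with 1 symbol on the array. Isg15 and Ifi44 had none and were not analysed here. The rule picks genes by name and does not use differences between groups, but the list was drawn up with earlier results of these data known.

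The data were 6 Affymetrix mouse arrays of total RNA from dermal fibroblasts of newborn mice (0 to 2 days), grown out of skin explants and used at passage 4. All cells carried in common an X-linked GFP transgene under the chicken β-actin promoter and the CMV enhancer. The mice were heterozygous daughters of transgenic males of a 129/ICR mixed background and BL6 females (strain label B6), and cells that did not express GFP, in which the transgene lay on the inactive X chromosome, were collected by cell sorting before the experiment. There were 3 groups with 2 arrays each. GFP-positive cells had been given 4 μM 5-aza-2'-deoxycytidine, which blocks the methylation of newly made DNA, over 48 hours, had recovered for 24 hours and were then sorted for regained GFP. A description field of the treated samples reads "untreated with" the drug, while their titles, treatment tags and treatment protocol give the drug, and the groups follow these. GFP-negative cells were the other fraction of the same kind of treated culture, still without GFP. Control cells were kept for the same times without the drug and were not sorted again, so that the drug and the additional sort cannot be told apart. The labels give mixed sex for control replicate 2 and female for the other arrays. The labels call the replicates biological without saying whether they came from separate cultures or animals, so the p-values cover only the spread among the arrays at hand.

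Type I interferons bind the receptor made of Ifnar1 and Ifnar2, whose kinases Jak1 and Tyk2 phosphorylate the STAT proteins. Stat2 and Irf9 are parts of the factor that then binds the interferon-stimulated response element in the promoters of the genes described here. Many of these genes encode sensors of foreign RNA or factors of the response itself, so that the response can amplify its own inputs. Dermal fibroblasts are able to mount it.

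Promoters were read from RefSeq (GRCm38.p6), which gave a sequence for 29 of the 37 genes. Usp18, Rtp4, Oas2, Mx1, Mx2, Dhx58, Zbp1 and Parp14 were not matched. In the 250 bases before the start, the core of the response element, GAAANNGAA on either strand, occurred in 14 of the 29 genes (48.3%) and in 8.18% of all 27025 genes with a promoter in the table. The gamma-activated site TTCNNNGAA, which reads the same on both strands, occurred in 7 of the 29 (24.1%) and in 8.13% of all genes. The 2 motifs overlapped in 1 of the 29 genes and in 37 of all genes. The genes held a median of 5 CpG sites in this window, against 6 for all genes. Stretches of 100 bases from 5 promoters are given here, 5′ to 3′ on the strand of the gene, with each copy of the response element core in capitals. Ifit1 is shown because it was the matched gene whose treated arrays all lay above the control arrays.
Ifit1: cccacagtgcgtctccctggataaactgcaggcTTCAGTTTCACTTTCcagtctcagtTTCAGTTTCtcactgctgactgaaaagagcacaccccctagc
Ifih1 and Rsad2 are shown, chosen after their values were seen, because they held the core and were among the genes with large differences within replicate 1.
Ifih1: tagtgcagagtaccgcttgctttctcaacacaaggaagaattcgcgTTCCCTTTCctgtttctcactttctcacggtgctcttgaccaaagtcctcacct
Rsad2: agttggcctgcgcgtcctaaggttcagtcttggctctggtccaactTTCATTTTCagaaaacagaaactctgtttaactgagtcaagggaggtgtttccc
Stat2 and Oas1a are shown because they held the core and had the most negative overall differences from control among the genes that did (-0.29 and -0.24).
Stat2: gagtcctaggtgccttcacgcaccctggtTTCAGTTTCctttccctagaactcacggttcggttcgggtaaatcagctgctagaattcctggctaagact
Oas1a: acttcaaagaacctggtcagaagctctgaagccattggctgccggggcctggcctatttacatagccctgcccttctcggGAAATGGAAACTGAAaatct
These stretches lie at chr19:34640747-34640846 on the plus strand for Ifit1, chr2:62646314-62646413 on the minus strand for Ifih1, chr12:26456518-26456617 on the minus strand for Rsad2, chr10:128270248-128270347 on the plus strand for Stat2 and chr5:120907526-120907625 on the minus strand for Oas1a. The Ifit1 stretch holds 3 copies of the core, the first beginning 109 bases before the start, and the Oas1a stretch holds 2, the first at 20 bases. The other 3 stretches hold 1 each, at 112 bases for Ifih1, 119 for Rsad2 and 221 for Stat2. A match of letters is a description and not a bound site.

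Signals are given on the scale of the deposited intensities after each array was brought to a 2% trimmed mean of 500. This rescaled 2 arrays, GFP-positive replicate 2 by 9.9 and GFP-negative replicate 2 by 8.06, since their deposited trimmed means were 50.5 and 62.0, against 500.003 to 500.004 on the other arrays. The lower quartile of scaled signal was 38.7 to 42.6 on the arrays of replicate 1 and 19.2 to 22.6 on those of replicate 2. The deviations of same-numbered arrays from their group means correlated at 0.506 to 0.556 over the 27022 probe sets kept by the filter on dim signal. Each replicate number is therefore treated below as an array set that holds 1 array of each group. Within the second set both treated arrays were rescaled and the control array was not, which cannot be told apart from treatment there. Of 10 fibroblast markers all passed the filter on dim probe sets, and their summed signal was 132019 to 136046 on GFP-positive arrays, 133815 to 145556 on GFP-negative arrays and 177806 to 179898 on control arrays. The markers were not alike. Over both treated fractions together, the intermediate filament gene Vim differed from control by 0.12, Col1a2 by -0.22, Thy1 by -0.28 and Col1a1 by -0.50. The matrix genes Lum and Dcn were lower by -3.08 and -2.99, Fap by -1.68, Pdgfra by -1.42, Pdgfrb by -0.90 and Col3a1 by -0.83. In limma with the replicate number as a block, the highest adjusted p of these last 6 genes was 0.00289, and Col1a1 passed too (0.0488). Without the block none of them passed, with limma adjusted p-values of 0.164 to 0.63 for the 6 genes and 0.868 for Col1a1. Of 12 leukocyte markers 7 passed the filter, with summed signals of 1906 to 1987, 1610 to 2250 and 967 to 1595 in the same order of groups, while the pan-leukocyte gene Ptprc, at no more than 60.1 on any array, and Cd3e, Cd79a, Itgam and Tyrobp were below it. Of the leukocyte markers past the filter, Cd68 and Csf1r had all treated arrays above both control arrays. Cd68 differed by 1.30 (limma adjusted p = 0.0448 with the block, 0.439 without it). The others did not pass with the block. These were Cd14 (1.30, 0.0997), Fcer1g (0.96, 0.372), Laptm5 (0.67, 0.228), Csf1r (0.45, 0.164), Adgre1 (0.07, 0.935) and Lyz2 (-0.38, 0.654). Keratinocyte markers (3 of 5 past the filter) summed to 611 to 764, 538 to 566 and 503 to 725, endothelial markers (3 of 5) to 194 to 397, 234 to 511 and 384 to 425, and melanocyte markers (2 of 5) to 268 to 559, 310 to 507 and 301 to 417. The part of other cell types in the results was not tested. In these bulk arrays, fewer cells of a type and less RNA per cell cannot be told apart.

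The interferon-stimulated genes stood above control in both treated fractions within replicate 1 and not within replicate 2. An offset of 30.64 was added to each signal before log2 was taken, and differences of dim genes are understated by it. Within replicate 1, GFP-positive cells exceeded control cells for 36 of the 37 genes with a median difference of 0.70, where 53.2% of all 18193 genes lay above and their median was 0.03. GFP-negative cells exceeded control cells for 35 of 37 with a median of 0.83, against 54.2% of all genes and a median of 0.04. The exceptions were Ifit2 in GFP-positive cells (-0.20) and Oas2 (-0.99) and Sp100 (-0.25) in GFP-negative cells. Within replicate 2, GFP-positive cells exceeded control cells for 14 of 37 genes with a median of -0.20, against 53.5% of all genes and a median of 0.04, and GFP-negative cells for 17 of 37 with a median of -0.02, against 52.1% and 0.02. A single array stands on each side of these differences, so they have no replicate check, and the 2 treated fractions of a set share its control array.

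Differences of at least 1 on the log2 scale were found within replicate 1 for 15 genes in GFP-positive cells and 15 in GFP-negative cells, all higher than control, with 0 that far below it. Of all genes, 5.98% were that far above control in GFP-positive cells and 4.45% that far below, and 6.34% and 4.41% in GFP-negative cells. Within replicate 2, GFP-positive cells had 2 genes that far above control and 2 that far below, against 9% and 7.01% of all genes. GFP-negative cells had 3 above and 2 below, against 7.58% and 6.02%. The genes above were Dhx58 and Oasl1 in both fractions and Mx2 in GFP-negative cells. Their signals on control replicate 2 were 16.2, 18.1 and 15.3, all below the lower quartile of that array, 19.2. The share within replicate 1 was thus above the background of the array, and that within replicate 2 was near it or under it.

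**Figure D1:**
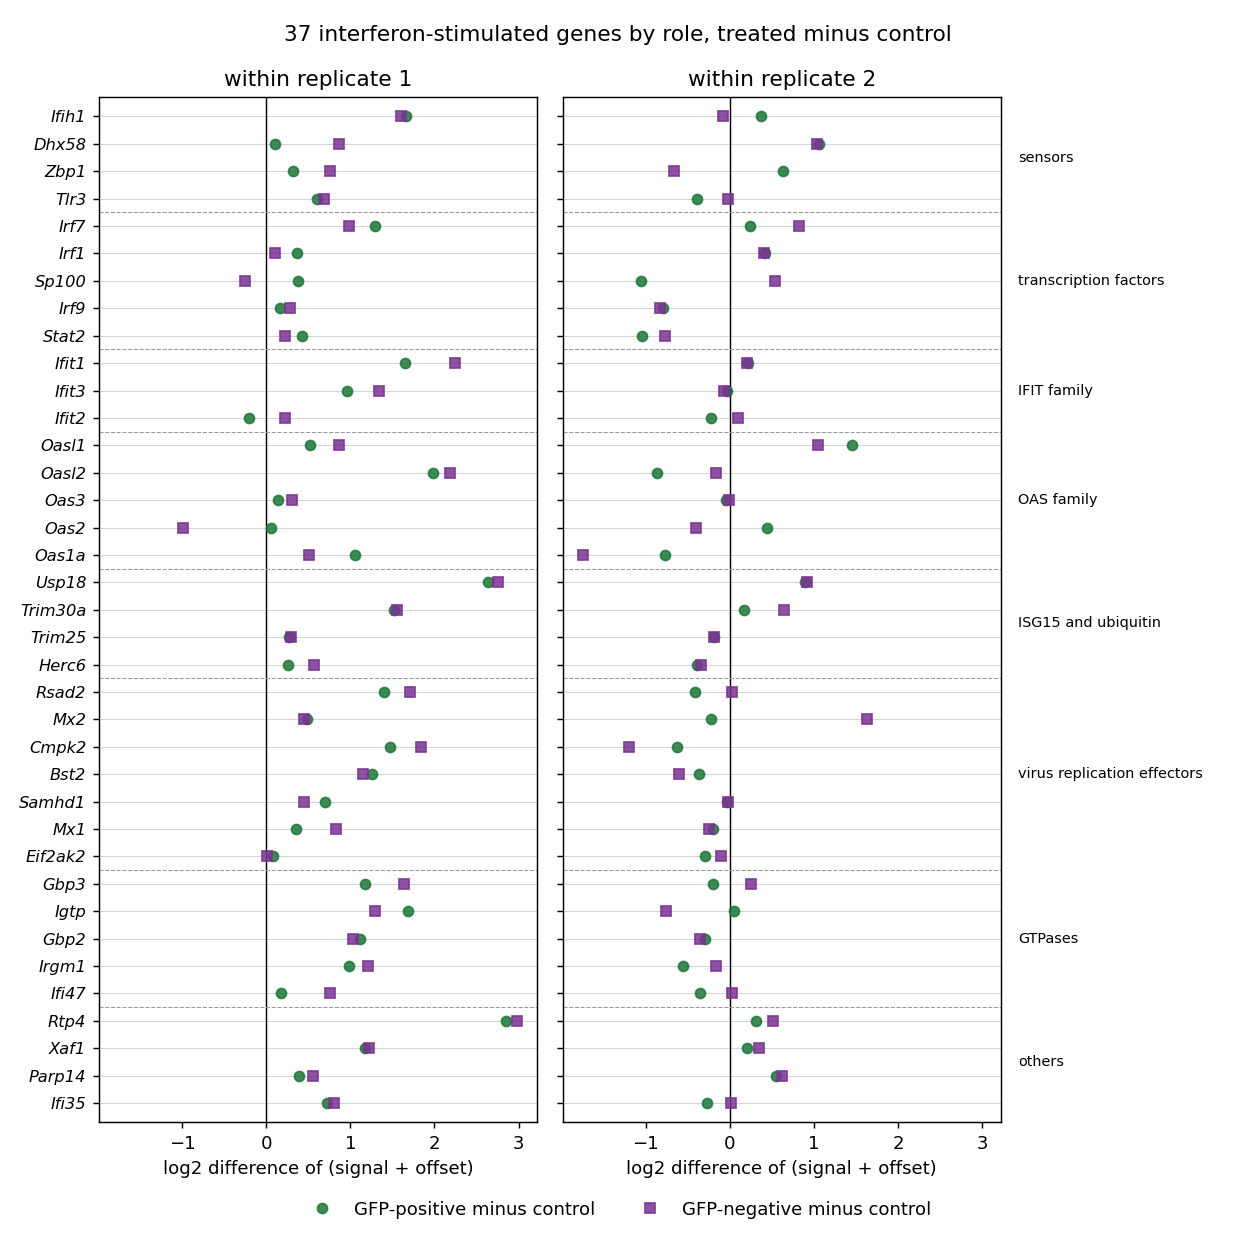
Log2 difference from control (horizontal axis, log2 of signal plus offset) of each of the 37 genes (vertical axis, grouped by role), for GFP-positive and GFP-negative cells within replicate 1 and within replicate 2, 1 array against 1 in each case. In replicate 1, 36 and 35 of the 37 points lie above 0 and in replicate 2, 14 and 17.

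Followed by gene, 34 of 37 had both fractions above control within replicate 1, against 40.7% of all genes, and 10 had both above within replicate 2, against 39.8%. The 10 were Usp18, Rtp4, Ifit1, Trim30a, Irf7, Oasl1, Dhx58, Xaf1, Parp14 and Irf1, and all of them were above control in the first set too (27.0% of the 37, against 21.3% of all genes). A further 16 genes (43.2%, against 9.11% of all genes) had both fractions above control in replicate 1 and both below it in replicate 2. These included the transcription factors Stat2 and Irf9, the synthetases Oas1a and Oasl2, the effectors Bst2, Cmpk2 and Samhd1, and the GTPases Gbp2 and Irgm1. Samhd1 lay close to control in replicate 2 (-0.04 and -0.02), and its other probe sets past the filter ranged from -0.77 to 1.00 there. No gene had both fractions below control within replicate 1, where 33.2% of all genes did.

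**Figure D2:**
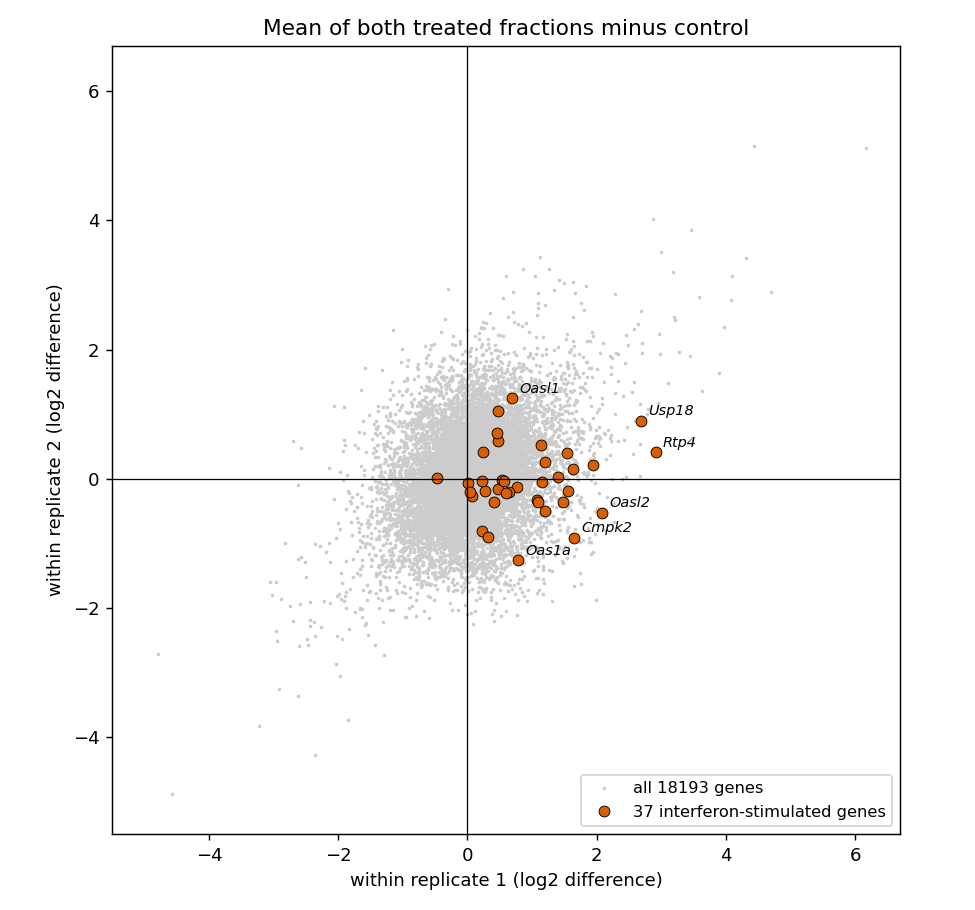
Mean log2 difference of both treated fractions from control within replicate 1 (horizontal axis) and within replicate 2 (vertical axis), with the 37 genes in colour over all 18193 genes in grey. The coloured points spread to the right of 0 and lie on either side of 0 in height, with Usp18 and Rtp4 farthest to the right.

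The negative regulator of the response gave the largest overall difference. Usp18 encodes the protease that removes ISG15 from proteins and dampens signalling at the interferon receptor. Its signal was 1140.7 and 339.4 in GFP-positive cells and 1246.4 and 347.5 in GFP-negative cells, against 158.8 and 169.4 in control cells, replicate 1 first in each pair. All 4 treated arrays lay above both control arrays, and the control arrays were close to each other. The means were 740.0 ± 566.6 in GFP-positive cells, 796.9 ± 635.6 in GFP-negative cells and 164.1 ± 7.5 in control cells (SD, n = 2 each). Over both sets the treated fractions together stood 1.80 ± 0.58 above control (SE), which did not pass limma's test over all probe sets (adjusted p = 0.417), but passed with the replicate number as a block (SE 0.32, adjusted p = 0.00707).

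The ubiquitin ligases and ligase-like genes around ISG15 were unlike each other. Trim30a, a TRIM-family gene of mouse, had signals of 625.1 and 157.3 in GFP-positive cells and 643.6 and 229.0 in GFP-negative cells, against 198.0 and 136.3 in control cells. Within each set both fractions were above that set's control, by 1.52 and 1.56 in the first and by 0.17 and 0.64 in the second. A second Trim30a probe set that passed the filter gave 0.80 and 0.94, then -0.57 and 0.36. Herc6, the ISG15 ligase of mouse cells, had 456.7 and 158.3 in GFP-positive cells and 573.2 and 166.1 in GFP-negative cells, against 376.1 and 217.6 in control cells, and the groups overlapped. All its other probe sets past the filter were above control in replicate 1, by 0.04 to 0.44. In replicate 2 they ranged from -0.44 to 0.74. Trim25, a ligase that acts on the RNA sensor RIG-I, differed from control by -0.19 to 0.30 in the 4 within-set differences.

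Rtp4, a transmembrane protein induced by interferon, was the other gene with a call in any fit of all 6 arrays. Its signal was 1041.5 and 266.2 in GFP-positive cells and 1142.5 and 311.2 in GFP-negative cells, against 117.9 and 209.0 in control cells. Both treated arrays of replicate 1 exceeded their control by far more than those of replicate 2, with differences of 2.85 and 2.98 in the first set and 0.31 and 0.51 in the second. The treated fractions together stood 1.66 ± 0.63 above control (SE, limma adjusted p = 0.54), or with the block SE 0.42 and adjusted p = 0.0382. A second, dim Rtp4 probe set with a mean signal of 25.2 gave -0.14 to 0.87.

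Among the other effectors of mixed function, Xaf1, which binds the apoptosis inhibitor XIAP, had both fractions above control in both sets (1.18 and 1.22, then 0.20 and 0.34). Its second probe set did so only in replicate 1 (1.18 and 1.02), with -0.48 and -0.43 in replicate 2. Parp14, an ADP-ribosyltransferase, was above control by 0.39 to 0.62 in all 4 differences, and its second, dim probe set by 0.48 and 0.28 in replicate 1, with -0.13 and -0.34 in replicate 2. Ifi35, an interferon-induced leucine zipper protein, had 4342.4 and 3959.0 in GFP-positive cells and 4602.8 and 4814.6 in GFP-negative cells, against 2615.9 and 4788.1 in control cells. For Ifi35 the control array of replicate 1 lay below all the others, and the control array of replicate 2 was among the highest.

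**Figure D3:**
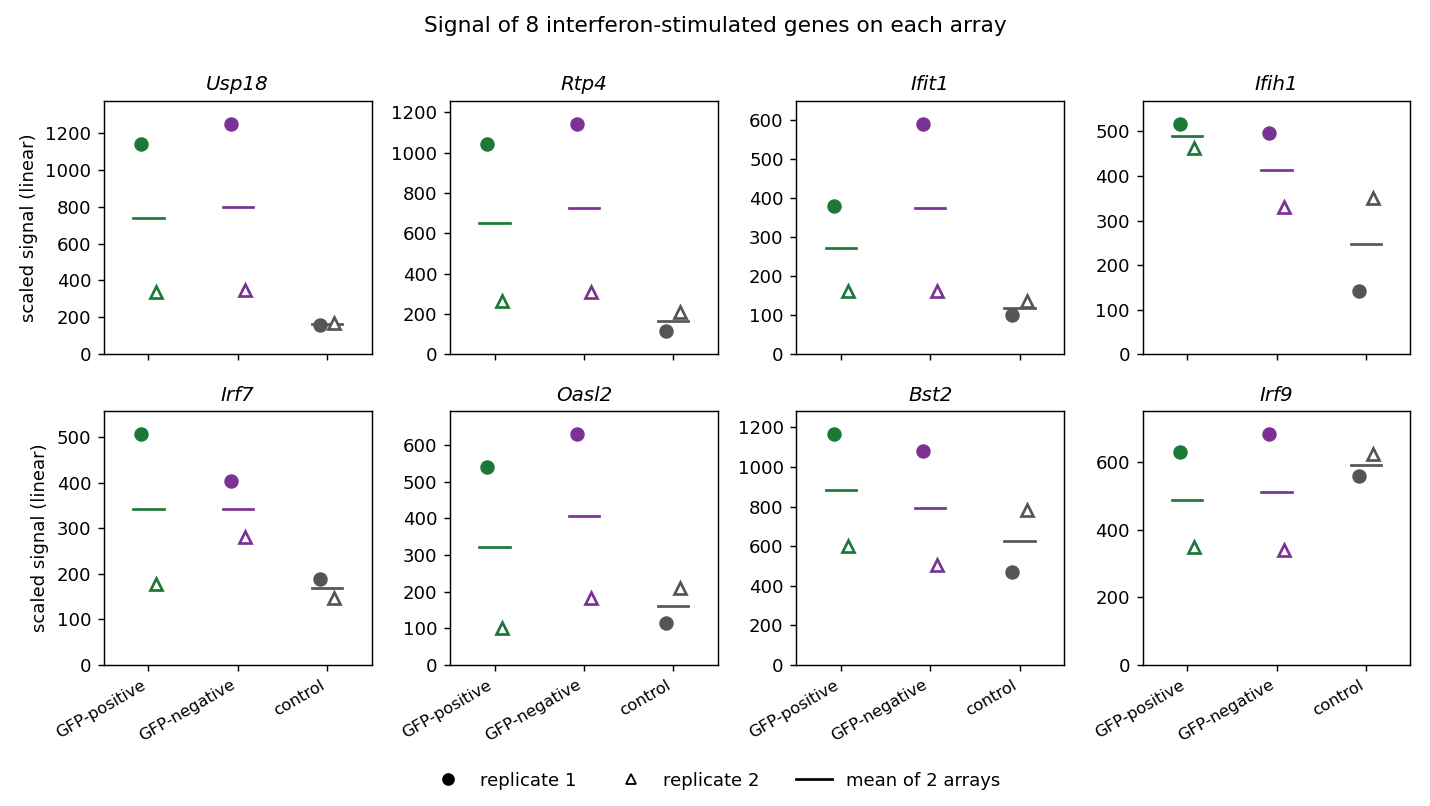
Scaled signal (vertical axis, linear, from 0) of 8 of the genes on each of the 6 arrays, with GFP-positive, GFP-negative and control cells from left to right, filled circles for replicate 1, open triangles for replicate 2 and a bar at the mean of both. For Usp18, Rtp4 and Ifit1 the 4 treated arrays lie above both control arrays.

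The sensors of foreign nucleic acid were above control within replicate 1 in both fractions, 4 of 4 in each. Ifih1 encodes MDA5, the sensor of long double-stranded RNA. It had 516.1 and 463.1 in GFP-positive cells and 495.2 and 331.3 in GFP-negative cells, against 142.6 and 351.0 in control cells. Its control array of replicate 1 was low and that of replicate 2 lay above the GFP-negative array of the same set, so the groups overlapped. Dhx58 encodes LGP2, a partner of MDA5. It differed from control by 0.11 and 0.86 within replicate 1 and by 1.06 and 1.03 within replicate 2. This order of the sets is the reverse of that in most genes, but it rests on a dim control value. Dhx58 had 150.0 and 67.3 in GFP-positive cells and 272.4 and 65.3 in GFP-negative cells, against 136.9 and 16.2 in control cells. The 16.2 lay below the lower quartile of control replicate 2, 19.2. The 2 other Dhx58 probe sets were dim, and 1 of them gave 1.35 and 0.66 in replicate 1 and -1.31 and -1.41 in replicate 2. Tlr3, the endosomal receptor for double-stranded RNA, had 185.8 and 85.1 in GFP-positive cells and 198.5 and 118.5 in GFP-negative cells, against 111.4 and 120.9 in control cells, again with overlap. Zbp1, a sensor of Z-form nucleic acid, ranged from -0.67 to 0.76 and was dim on GFP-negative replicate 2, at 4.0.

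The transcription factors differed among themselves. Irf7, the interferon-induced factor that drives interferon-α genes, had 506.7 and 178.1 in GFP-positive cells and 403.5 and 280.6 in GFP-negative cells, against 189.4 and 146.1 in control cells. Only its GFP-positive array of replicate 2 lay between the control arrays. Irf1 was 0.11 to 0.42 above control in all 4 differences. Stat2, a subunit of the factor that binds the response element, had 421.2 and 91.0 in GFP-positive cells and 359.2 and 116.1 in GFP-negative cells, against 304.2 and 218.8 in control cells. Its treated arrays were above their control in replicate 1 and below it in replicate 2. Irf9, the subunit that recognises DNA in that factor, showed the same pattern, with 630.2 and 349.3 in GFP-positive cells and 683.1 and 339.4 in GFP-negative cells, against 559.1 and 626.2 in control cells. Sp100, a nuclear body protein, had differences from -1.06 to 0.53.

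Of the IFIT family, which encodes proteins that bind viral RNA, Ifit1 was the third gene whose treated arrays all exceeded the control arrays. It had 380.9 and 162.3 in GFP-positive cells and 589.8 and 161.2 in GFP-negative cells, against 100.5 and 136.0 in control cells, with means of 271.6 ± 154.6, 375.5 ± 303.0 and 118.2 ± 25.1 (SD, n = 2 each). The difference of 1.08 ± 0.53 (SE) did not pass limma's test (adjusted p = 0.757, or 0.109 with the block). Ifit3 was above control by 0.96 and 1.34 in replicate 1, against -0.03 and -0.07 in replicate 2. Ifit2 had 346.7 and 407.7 in GFP-positive cells and 477.3 and 517.6 in GFP-negative cells, against 404.0 and 480.2 in control cells, and in both sets GFP-positive was lowest and GFP-negative highest. The Ifit1 stretch printed above carries 3 copies of the response element core, while no core was found in the Ifit2 window.

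OAS enzymes make the messenger that activates RNase L on sensing double-stranded RNA. Oasl1, a family member without that synthetase activity, had 276.4 and 102.9 in GFP-positive cells and 362.0 and 70.1 in GFP-negative cells, against 183.6 and 18.1 in control cells. Its differences were larger in replicate 2 (1.45 and 1.05) than in replicate 1 (0.52 and 0.87). This order rests on a dim control value, since 18.1 lay below the lower quartile of control replicate 2, 19.2. Oasl2 went the other way, with 1.98 and 2.19 in replicate 1 and -0.87 and -0.17 in replicate 2. Oas1a had 407.6 and 80.2 in GFP-positive cells and 268.9 and 25.8 in GFP-negative cells, against 179.9 and 158.9 in control cells. Its treated arrays were above both controls in replicate 1 and below both in replicate 2. Oas2 was the gene with GFP-positive above GFP-negative cells in both sets by the most, at 101.4 and 110.8 against 33.0 and 48.4, with 95.8 and 73.9 in control cells. Oas3 was dim throughout, at 14.8 to 44.6.

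The 7 effectors that act on virus replication were all above control within replicate 1 in both fractions, while within replicate 2 none was above it in GFP-positive cells and 2 of 7 were in GFP-negative cells. Rsad2, which encodes viperin, had 151.1 and 107.9 in GFP-positive cells and 195.4 and 158.0 in GFP-negative cells, against 38.3 and 154.0 in control cells. The control array of replicate 1 was the lowest of the 6. Cmpk2, a mitochondrial nucleotide kinase, was 1.47 and 1.84 above control in replicate 1, with -0.63 and -1.20 in replicate 2. Eif2ak2, which encodes the RNA-activated kinase PKR, had 648.0 and 409.7 in GFP-positive cells and 616.7 and 470.8 in GFP-negative cells, against 610.3 and 510.5 in control cells. Its signals overlapped in all groups. Other Eif2ak2 probe sets past the filter gave 0.58 and 0.63, and 0.53 and 0.37, in replicate 1, with -0.79 to 0.09 in replicate 2. Bst2, which encodes tetherin, differed by 1.26 and 1.15 in replicate 1 and by -0.37 and -0.61 in replicate 2. Mx1 and Mx2, dynamin-like GTPases that act against viruses, were too dim to pass the filter.

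The immunity-related and guanylate-binding GTPases, which act on vacuoles that hold microbes, were above control within replicate 1 in 5 of 5 genes in each fraction, with medians of 1.12 and 1.21. Within replicate 2 the medians were -0.30 and -0.16, with 1 of 5 and 2 of 5 above control. Gbp3 had 246.9 and 70.3 in GFP-positive cells and 352.9 and 107.2 in GFP-negative cells, against 92.7 and 85.4 in control cells. Its control arrays were alike, and its GFP-positive array of replicate 2 was the lowest of the 6. Ifi47 had 400.0 and 484.9 in GFP-positive cells and 613.3 and 642.5 in GFP-negative cells, against 350.4 and 626.5 in control cells, and the groups overlapped. Gbp2 was covered by 2 probe sets, which gave 1.12 and 1.03 and, for the second, 1.59 and 1.73 in replicate 1, and lay between -0.35 and -0.05 in replicate 2. Over the 27 other probe sets of the 37 genes, GFP-positive arrays exceeded control for 25 in replicate 1 and 10 in replicate 2, and GFP-negative arrays for 24 and 15.

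The 34 genes past the filter on dim probe sets were tested in limma's fit over all 27022 kept probe sets. Without a block, 0 of 34 were called in GFP-positive against control (2 at an unadjusted p under 0.05), where 0.122% of all probe sets were called and 7.04% had such a p. For GFP-negative against control 0 were called (2 unadjusted), against 0.0296% (5.07% unadjusted), and for both fractions together against control 0 (3 unadjusted), against 0.181% (7.54% unadjusted). With the replicate number as a block, GFP-positive against control had 1 call (9 unadjusted) and GFP-negative against control 1 (9 unadjusted), against 6.21% and 3.57% of all probe sets, and both together had 2 (9 unadjusted), against 6.99%. At an unadjusted p under 0.05 the blocked fit held 20.3%, 16.2% and 21.2% of all probe sets in these comparisons. Usp18 was the call of each fraction (1.76 and 1.84), and Rtp4 joined it in the joint comparison. The blocked fit without a mean-variance trend called 0 of the 34. That fit called only 8, 0 and 8 of all 27022 probe sets in the same order of comparisons, so this 0 is also near its background. The share of these genes that was called was thus no higher than the background share. Xaf1 (block adjusted p = 0.0598), Trim30a (0.0615) and Irf7 (0.0885) missed the threshold in the joint comparison.

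Over both sets the median difference from control was 0.41 in GFP-positive cells and 0.34 in GFP-negative cells, where all genes had 0.04 and 0.03, and these medians depended on single arrays. Without GFP-positive replicate 1 the first median was -0.02, without GFP-positive replicate 2 it was 0.72 and without control replicate 1 it was 0.23. The second was 0.11 once GFP-negative replicate 1 was left out and 0.87 once GFP-negative replicate 2 was. Of the 37 genes 3 (8.11%) had all 4 treated arrays above both control arrays, against 9.49% of all genes, and 0 had them all below, against 8.4%. The count of separated genes was therefore near the background of the array.

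Whether the difference from control differed between the array sets was tested as an interaction in limma, in which the spread between the 2 treated fractions stands in as error. The contrast between the sets was known from earlier results of these data when this test was chosen. After adjustment 0 of the 34 genes passed (lowest adjusted p = 0.272) and 0% of all probe sets did. At an unadjusted p under 0.05, 19 of the 34 genes had a larger difference in replicate 1 and 0 in replicate 2, where 2.78% of all probe sets were larger in replicate 1 and 3.57% in replicate 2. The differences between sets were 2.61 ± 0.51 for Oasl2, 2.57 ± 0.73 for Cmpk2, 2.51 ± 0.38 for Rtp4, 1.79 ± 0.36 for Usp18, 1.69 ± 0.33 for Bst2 and 1.46 ± 0.32 for Irgm1 (replicate 1 minus replicate 2, SE). This share was above the background, though each treated fraction of a set was set against the same control array.

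Replicates were also compared within each group. Replicate 2 minus replicate 1 had a median of -0.91 over the 37 genes in GFP-positive cells, with 33 of them lower in replicate 2, and of -1.06 in GFP-negative cells, with 29 lower. In control cells it was 0.08, with 19 genes higher and 18 lower. All genes had medians of -0.13, -0.17 and -0.15 in the same order of groups. The median signal of the 37 genes was 456.7 and 162.3 in GFP-positive cells, 573.2 and 182.2 in GFP-negative cells, and 183.6 and 208.6 in control cells. The highest of the 6 arrays was GFP-positive replicate 1 for 10 of the 37 genes and GFP-negative replicate 1 for 20. The lowest was control replicate 1 for 12, GFP-positive replicate 2 for 9, and GFP-negative replicate 2 and control replicate 2 for 7 each.

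**Figure D4:**
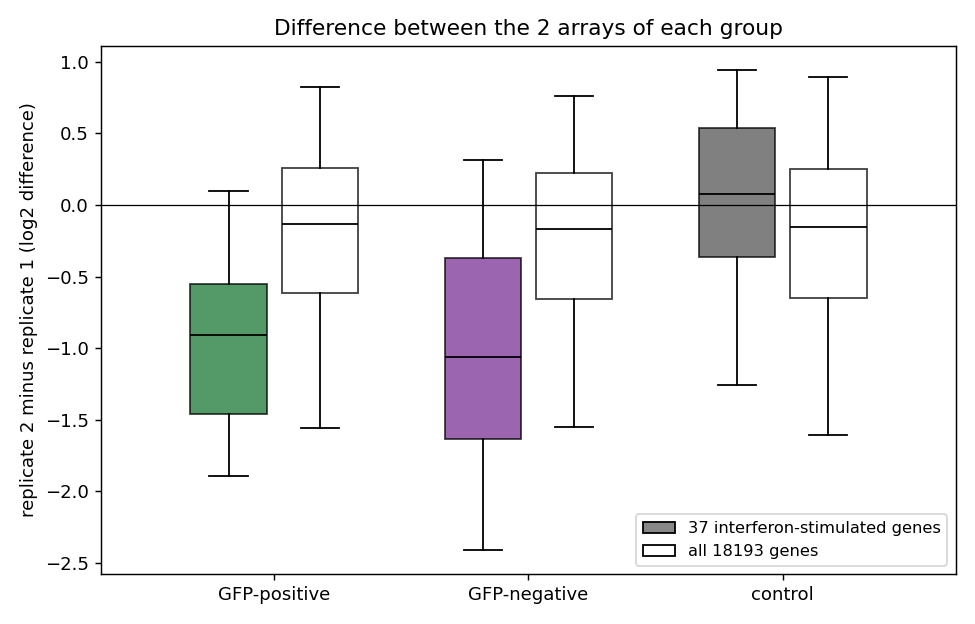
Replicate 2 minus replicate 1 (log2 difference) of the 37 genes (filled boxes) and of all 18193 genes (open boxes) within GFP-positive, GFP-negative and control cells, with a line at the median, boxes over the middle quartiles and whiskers at the 5th and 95th percentiles. The treated groups lie below 0 for 33 and 29 genes, and the control group is split 19 to 18.

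No interferon-stimulated gene passed a test between GFP-positive and GFP-negative cells. Over both sets 11 of 37 genes were higher in GFP-positive cells, with a median difference of -0.12, against 50.2% of all genes and a median of 0.00. The median was -0.11 within replicate 1 and -0.04 within replicate 2. In limma's test 0 of the 34 genes were called (0 unadjusted), and 0% of all probe sets (169 unadjusted), and with the block 0 genes and 0% of all probe sets (1553 unadjusted). Usp18 differed by -0.08 ± 0.67, Rtp4 by -0.17 ± 0.73 and Ifit1 by -0.29 ± 0.61 (SE), and errors of this size do not show that the fractions act alike.

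Genes with the response element core and without it were set side by side within each set, with no test. The 14 genes with the core had medians of 1.14 in GFP-positive and 1.25 in GFP-negative cells within replicate 1, against 0.52 and 0.69 for the 15 genes without it. Within replicate 2 the medians were -0.20 and -0.12 with the core, against -0.30 and 0.01 without it. The ranges overlapped, since within replicate 1 the genes with the core spanned 0.14 to 1.69 in GFP-positive cells and those without it -0.20 to 1.98.

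Of 34 other genes of the pathway (ligands, receptors, kinases, adaptors and inhibitors) 32 were tested, and without a block 0 were called in any comparison. With the block Stat3 and Ifnar2 were lower in GFP-positive cells, Sting1 lower in GFP-negative cells, and all 3 lower in both fractions together, with 0 higher. These are 2, 1 and 3 of 32, where 6.21%, 3.57% and 6.99% of all probe sets were called, so the counts are near the background. The interferon receptor chain Ifnar2 had signals of 735.0 and 1095.4 in GFP-positive cells and 954.2 and 1426.1 in GFP-negative cells, against 1394.0 and 1926.8 in control cells (joint difference -0.66 ± 0.13, SE with the block, limma adjusted p = 0.0132). The DNA-sensing adaptor Sting1 stood at -0.82 ± 0.19 (adjusted p = 0.0251), with 634.5 and 668.9 in GFP-positive cells and 452.7 and 607.1 in GFP-negative cells, against 1244.2 and 897.5 in control cells. The signal transducer Stat3 stood at -0.70 ± 0.12 (adjusted p = 0.00488), with 2816.4 and 2391.7 in GFP-positive cells and 3567.9 and 3781.8 in GFP-negative cells, against 5044.7 and 5015.7 in control cells. In the fit without a block their joint adjusted p-values were 0.257 for Stat3, 0.346 for Sting1 and 0.611 for Ifnar2. These values are from the brightest probe set of each gene. Stat3 had 4 probe sets, Ifnar2 3 and Sting1 2, and results of the others are not given here. The partner receptor chain Ifnar1 overlapped between groups, at 651.6 and 775.8 in GFP-positive cells and 1072.2 and 736.1 in GFP-negative cells, against 1015.5 and 760.2 in control cells. The kinase Jak1 lay between 2891.6 and 4411.3 on all arrays, and Tyk2 between 174.6 and 527.3. The ligand gene Ifnb1, which encodes interferon-β, had 293.5 and 92.0 in GFP-positive cells and 244.0 and 80.6 in GFP-negative cells, against 142.1 and 68.9 in control cells, a difference of 0.51 that missed the test (block adjusted p = 0.383). The other measured ligand genes, Ifna2 (-1.27) and Ifna4 (0.06), were too dim to pass the filter. All treated arrays of Ifna2 lay below both control arrays. The median of the pathway genes was -0.05 and 0.07 in GFP-positive cells within replicates 1 and 2, and 0.05 and -0.03 in GFP-negative cells.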

How the data were processed

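GFP-positive, GFP-negative and control cells each gave RNA for 2 Affymetrix mouse arrays. The deposited table gave for every array a linear signal intensity of each probe set, which per the submitters' processing notes came from MAS5. For MAS5 a version or settings were not given in the sources used here. Of 45101 probe sets 64 controls were left out. Of the remaining 45037, 34945 had 1 gene symbol, 932 several and 9160 none. All arrays were brought to a 2% trimmed mean of 500. The offset of 30.64 is the 25th percentile of signal, as a median of the 6 arrays. A mean signal at or above the 40th percentile (67.71) was required, which left 27022 probe sets. Among them were the brightest probe sets of 34 interferon-stimulated genes and 18 of the 27 other probe sets of the list.

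Comparisons used limma 3.58.1 in R 4.3.3 over all 6 arrays, with a mean-variance trend, 3 residual degrees of freedom and a threshold of 0.05 on p-values adjusted by Benjamini-Hochberg over all kept probe sets. The interaction with the array set left 2 residual degrees of freedom. The replicate number was used as a block since the deviations of same-numbered arrays correlated at 0.506 or more between each pair of groups. The number of arrays limits the precision. The fits were tested on simulated data.

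The genes, role groups and pathway and marker lists were chosen with earlier results of these data known. Signals on every array are given for genes called in any fit of all arrays, for genes whose treated and control arrays do not overlap, and for the largest and smallest overall difference of each role group, with a few others chosen after their values were seen. Pathway genes named are those called, the chains of the type I interferon receptor, its kinases Jak1 and Tyk2, and the measured ligand genes. Alternatives were other scalings, offsets, filters, probe set choices and samples, no trend, and the omission of each array. The following were chosen after seeing the data: the alternatives for the interaction, the medians over genes past the filter alone, and the promoters of Ifih1 and Rsad2.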

Additional observations from a re-analysis of the deposited data

How the results depend on the processing

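Without a block, the count of interferon-stimulated genes called was 0 in each comparison under every other scaling, offset, filter, probe set choice and left-out single array that was run. With the replicate block it was 1 in GFP-positive, 1 in GFP-negative and 2 in both together against control. In that fit 6.21%, 3.57% and 6.99% of all probe sets were called. With the block and quantile normalization it was 1, 0 and 1, for which the share of all probe sets is not given here. The omission of both rescaled arrays is not covered by these counts. It leaves 1 array in each treated group, so calls are not given for it. The joint difference was then 2.65 for Usp18 and 2.57 for Rtp4. The joint difference of Usp18 ranged from 1.36 to 2.65 over all alternatives, that of Rtp4 from 1.20 to 2.57 and that of Ifit1 from 0.65 to 1.77. The median of GFP-positive minus GFP-negative, -0.12, ranged from -0.58 to 0.44 when 1 array was left out. Such an omission sets arrays of different replicates against each other, so this range also holds the difference between the array sets. Within replicate 1 the median was -0.11 and within replicate 2 it was -0.04, each from 1 array against 1. The genes above control in GFP-negative cells within replicate 2 numbered 11 of 25 with a filter at the 60th percentile, in place of 17 of 37, since fewer genes were left. At an unadjusted p under 0.05 the interaction held 16 to 20 genes over its alternatives and 0 after adjustment in each. The deposited trimmed means show that 2 arrays were on another scale. Dim genes such as Mx1, Mx2 and Oas3 are limited by their signal over background.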
